A study of Mus musculus with 9 samples.

Results

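The type 1 cannabinoid receptor gene Cnr1 and 6 genes for enzymes that make or break down its lipid ligands were followed through single cells of the mouse central amygdala. The 7 genes are Cnr1, Dagla, Daglb, Mgll, Abhd6, Napepld and Faah, members of 1 signalling system out of 22601 genes in the count table. They were chosen by name, with earlier results of these data known, including that Cnr1 was higher in Prkcd cells. All 9 samples belong to 1 group, wild-type B6 mice with no treatment named in the labels, whose cells were microdissected and dissociated from acute slices and pooled. The cells carry 3 animal numbers, each found on 3 date fields, and no source used here says whether a number marks the same animal on different dates. The tests therefore measure the spread between these 9 samples, which may be partly technical. The classes compared are classes of cells within each sample, and the age and sex of the mice are not given in the labels.

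CB1, the product of Cnr1, is a receptor on presynaptic terminals that couples to inhibitory G proteins and lowers transmitter release. Its ligand 2-arachidonoylglycerol (2-AG) is made on demand in postsynaptic cells by the diacylglycerol lipases encoded by Dagla and Daglb, travels backwards across the synapse, and is cleaved by monoacylglycerol lipase (Mgll) and by the membrane hydrolase encoded by Abhd6. The other main ligand, anandamide, can be made by the phospholipase encoded by Napepld and is broken down by fatty acid amide hydrolase (Faah). In the central amygdala, a mainly GABAergic nucleus that shapes fear and feeding, this system is known for damping synaptic input.

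A cell was counted as positive for a gene when the gene held at least 1 of every 10000 gene counts of that cell. Inhibitory cells were positive for the GABA genes Gad1, Gad2 or Slc32a1 and for neither of the glutamate transporter genes Slc17a7 and Slc17a6, which left 810 of 829 cells. Their median depth was 126576 gene counts, and samples held 82 to 95 inhibitory cells. Of the 810 cells, 320 were positive for Prkcd and not Sst, 125 for Sst and not Prkcd, 23 for both and 342 for neither. Prkcd (protein kinase C delta) and Sst (somatostatin) mark the best known cell classes of this nucleus. The transcription factor genes Isl1 and Nr2f2 marked 76 and 116 cells. The marker lists of astrocytes, microglia, endothelial cells and excitatory neurons each summed to at most 6.30 CPM (counts per 1000000 gene counts of the sample's cells in a class) in any sample over the inhibitory cells, and the microglial genes C1qa and C1qb had no count. The excitatory list holds Slc17a7 and Slc17a6, so its low sum was in part set by the choice of cells. Oligodendrocyte markers were the exception, with a sum of 93.8 to 2617 CPM per sample (1 library stood far above the rest, through cells with neither Prkcd nor Sst) and at least 1 of the 5 genes positive in 36.9% of cells.

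Cnr1 was positive in 26.7% ± 3.74 of inhibitory cells (mean ± SD over 9 samples), 216 cells in all, and a further 240 cells held Cnr1 counts below the threshold. Over the 9 samples its level ran from 60.7 CPM through a median of 70.7 CPM to 99.9 CPM. Cells just under and just over the threshold were about as many, with 31 cells at 0.8 to 1 per 10000 and 38 cells at 1 to 1.25. The decile of cells richest in Cnr1 carried 51.9% of all Cnr1 counts.

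Among the genes for 2-AG synthesis, Dagla was positive in 4.81% ± 3.10 of cells, between 1.05% and 9.47% per sample, and its level was 14.7 ± 3.51 CPM. Daglb was positive in 14.1% ± 4.17 of cells, at 32.4 ± 9.70 CPM. Daglb exons overlap those of Rac1 on the opposite strand in the GENCODE M21 annotation, and whether counting used strand is not stated in the sources, so Daglb counts are uncertain. Across 801 cells with at least 20000 counts the levels of Daglb and Rac1 had a correlation of -0.042.

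Among the hydrolases of 2-AG, Mgll was positive in 16.2% ± 5.29 of cells, and its level was lowest in replicate 7, at 20.4 CPM, with a median of 53.5 CPM and a highest value of 77.5 CPM. Abhd6 was positive in 22.5% ± 1.61 of cells, with a level of 53.3 ± 7.05 CPM. Mgll overlaps an opposite-strand gene, Gm26588, for which the table has no row.

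Of the genes for anandamide, Napepld was positive in 10 of 810 cells, 1.19% ± 1.44 per sample, and 781 cells held none of its counts. Faah was positive in 22.7% ± 7.45 of cells, and its level ran from 37.4 CPM through 54.3 CPM to 96.1 CPM. Since counts were not scaled for gene length, the levels of different members are not ranked against each other. Positive cells held a median of 15 Dagla counts, 26 Cnr1 counts and 26.5 Napepld counts.

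Levels of Cnr1 summed per sample, though not single cells, were separated between the Prkcd and the Sst class. In the 320 cells with Prkcd and not Sst its level was 66.7 CPM in the lowest sample, 119 CPM at the median and 151.9 CPM in the highest. In the 125 cells with Sst and not Prkcd the lowest, median and highest were 11.0, 29.9 and 60.05 CPM. The classes did not overlap, and the Prkcd cells were higher in 9 of 9 samples, with means of 115 ± 28.9 CPM against 34.0 ± 18.7 CPM (SD, n = 9). The share of all genes whose samples separate in this way was not counted, here or below. The fitted log2 fold change was 1.89 ± 0.26 (SE), with a 95% interval of 1.33 to 2.46 and an adjusted p of 0.000294 by edgeR's quasi-likelihood test with sample as a block, adjusted over 10398 genes. Cnr1 was the 1 member to pass, where 8.43% of all genes tested passed in this comparison. Its higher level in Prkcd cells was known from these data when the genes were chosen. The p-values for Cnr1 by Prkcd, here and below, are thus no independent test of that difference.

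Cnr1 was positive in 39.4% ± 6.79 of Prkcd cells, 126 of 320, against 15.0% ± 9.64 of Sst cells, 20 of 125. The lowest Prkcd share, 27.8%, lay above the highest Sst share, 26.7%. Positive cells held 2.57 ± 0.38 Cnr1 counts per 10000 in the Prkcd class and 2.19 ± 1.21 in the Sst class, which overlap. In the 342 cells with neither marker Cnr1 was positive in 19.5% ± 6.23 and its level was 53.0 ± 13.5 CPM. Its range there, 35.3 to 78.1 CPM, overlapped both other classes, and no test of cells with neither marker against Sst cells was run.

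Values that moved with these classes are given here for Cnr1. Oligodendrocyte markers summed to 156 ± 29.2 CPM in Prkcd cells, from 117.5 to 210.4 CPM, and to 105 ± 36.2 CPM in Sst cells, from 33.2 to 158.1 CPM. At least 1 of their 5 genes was positive in 45.6% of Prkcd cells and 32.0% of Sst cells. Without the cells positive for the myelin gene Mbp, 8 samples remained and the log2 fold change of Cnr1 was 2.19 ± 0.56, at an edgeR adjusted p of 0.0410. Of a list of 5 genes drawn up for cortical interneurons rich in CB1, 3 were in the table, Cck, Reln and Slc17a8. Vip and Htr3a were absent. The 3 genes summed to 5.92 ± 6.37 CPM in Prkcd cells and 54.6 ± 63.1 CPM in Sst cells. The part of such interneurons in the result was not tested. Median depth was 120150 counts in Prkcd cells and 124190 in Sst cells, and with counts thinned to 50000 per cell the log2 fold change was 1.79 ± 0.30. When any cell with 1 count of a marker was called positive, 231 Prkcd and 183 Sst cells remained and the log2 fold change of 1.79 ± 0.45 no longer passed, at an edgeR adjusted p of 0.0597.

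Within single animal numbers the log2 fold change of Cnr1 between Prkcd and Sst cells was 1.97, 1.58 and 2.15, and within single date fields 1.96, 1.15 and 2.71, from 3 samples each. The edgeR adjusted p was 0.0475 in 1 date field and between 0.0882 and 0.319 in the other date fields and the animal numbers. With counts summed to 1 value per animal number and class, 3 per class, it was 1.56 ± 0.24 at an adjusted p of 0.0190.

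The broader split by Prkcd gave the same direction. Cnr1 stood at 85.8, 117.5 and 151.9 CPM (lowest, median, highest) in the 343 Prkcd-positive cells, against 39.1, 42.7 and 67.3 CPM in the 467 Prkcd-negative cells. Again no sample of a class reached into the other, and positive cells were higher in 9 of 9 samples. The log2 fold change was 1.24 ± 0.13, with a 95% interval of 0.95 to 1.53 and an edgeR adjusted p of 2.39e-05. In this comparison 17.3% of 11487 genes passed. Without all Sst-positive cells it was 1.15 ± 0.17 at an adjusted p of 0.000401, which sets Prkcd cells against cells with neither marker. Within animal numbers and date fields it lay between 0.98 and 1.44, with edgeR adjusted p between 0.0287 and 0.0923. It was 1.25 ± 0.15 with counts summed per animal number, at an adjusted p of 0.00544. These comparisons share cells and are not independent of each other.

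**Figure D1:**
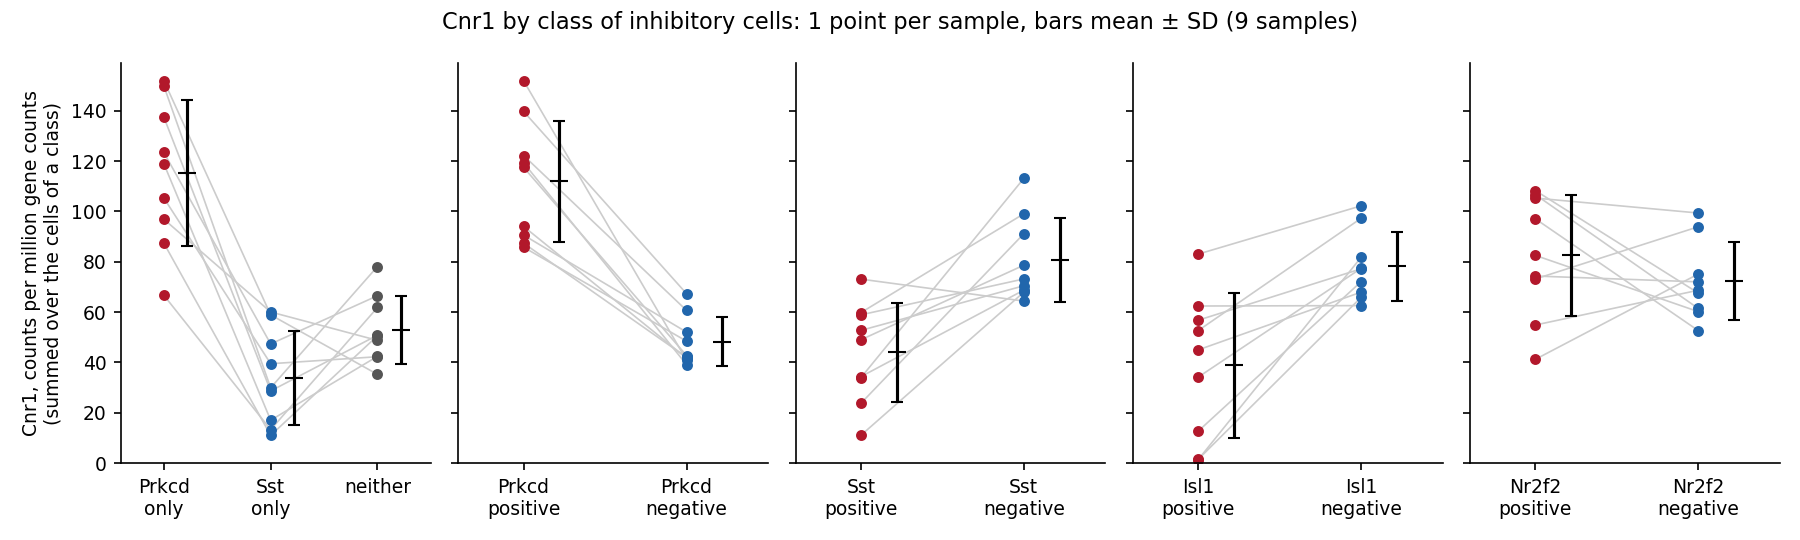
Level of Cnr1 in CPM (y axis) in classes of inhibitory cells (x axis), with 1 point per sample, grey lines joining classes of the same sample and bars giving the mean ± SD of 9 samples. The Prkcd-only samples lie at 66.7 to 151.9 CPM and the Sst-only samples at 11.0 to 60.05 CPM, while the Nr2f2-positive and Nr2f2-negative samples overlap.

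In the splits by Sst and by Isl1, Cnr1 did not pass over all genes. Its level was 11.0, 49.0 and 73.1 CPM (lowest, median, highest) in 148 Sst-positive cells, against 64.4, 73.2 and 113.1 CPM in 662 Sst-negative cells. The Sst-positive cells were lower in 8 of 9 samples, and the classes overlapped through the highest Sst-positive sample, replicate 7. The log2 fold change was -0.95 ± 0.27, with a 95% interval of -1.53 to -0.37 and an edgeR adjusted p of 0.0661, where 4.53% of genes passed. It passed with DESeq2 (adjusted p 0.00871), with Sst positive at 3 counts per 10000 (0.0181), with thinned counts (0.0369) and without replicate 7 (-1.10, adjusted p 0.0422). Without all Prkcd-positive cells it was -0.76 ± 0.36 at an adjusted p of 0.359. Within animal numbers the values were -0.65, -1.11 and -1.11, and within date fields -1.43, -0.54 and -0.94, with edgeR adjusted p between 0.216 and 0.868.

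In 76 Isl1-positive cells Cnr1 stood at 1.33, 45.0 and 83.0 CPM (lowest, median, highest), against 62.6, 77.2 and 102.2 CPM in 734 Isl1-negative cells. All 9 samples were lower, and in replicates 8 and 9 the 6 Isl1-positive cells of each held 1 Cnr1 count. The log2 fold change was -1.42 ± 0.51, with a 95% interval of -2.52 to -0.32 and an edgeR adjusted p of 0.135, where 4.85% of genes passed and the median gene was at -0.34. DESeq2 gave an adjusted p of 0.0162. Isl1-positive cells were deeper, at a median of 169576 counts, against 123695 in Isl1-negative cells, and the part of depth in this value was not tested beyond the thinned fit, which gave -1.23 ± 0.42. Prkcd itself was at 83.0 ± 123 CPM in Isl1-positive cells and 352 ± 101 CPM in Isl1-negative cells, and without Prkcd-positive cells the Cnr1 value was -1.38 ± 0.65 at an edgeR adjusted p of 0.354. Within animal numbers it was -0.74, -2.49 and -1.25, and within date fields -0.54, -1.18 and -3.65, with edgeR adjusted p between 0.534 and 0.798.

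Nr2f2, which encodes the nuclear receptor COUP-TFII, gave overlapping Cnr1 levels in its positive and negative cells. Cnr1 stood at 41.2, 82.5 and 108.3 CPM (lowest, median, highest) in 116 Nr2f2-positive cells, against 52.7, 68.7 and 99.4 CPM in 694 Nr2f2-negative cells. The log2 fold change was 0.17 ± 0.22, with an interval of -0.30 to 0.63 and an edgeR adjusted p of 0.775, where 1.69% of genes passed. Within animal numbers it was -0.38, 0.44 and 0.41, and within date fields -0.10, 0.15 and 0.43, so the sign was not stable. Without Prkcd-positive cells the value was 0.70 ± 0.53, adjusted p 0.626, from 8 samples.

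By combination of the 4 markers, Cnr1 was positive in 40.4% of 265 cells with Prkcd alone (exact 95% interval 34.4% to 46.6%). The share was 34.8% of 46 cells with Prkcd and Nr2f2 (21.4% to 50.3%) and 35.0% of 60 cells with Nr2f2 alone (23.1% to 48.4%). It was 15.3% of 111 cells with Sst alone (9.18% to 23.4%) and 14.5% of 55 cells with Isl1 alone (6.50% to 26.7%). Cells with none of the 4 markers gave 15.6% of 225 (11.1% to 20.96%). The intervals cover counting error over pooled cells and not the spread between samples. Per sample, cells with Nr2f2 alone ran from 12.8 to 183 CPM of Cnr1 and cells with none of the markers from 19.1 to 92.9 CPM, which overlap. Of the 23 cells with both Prkcd and Sst, 6 were positive for Cnr1.

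**Figure D2:**
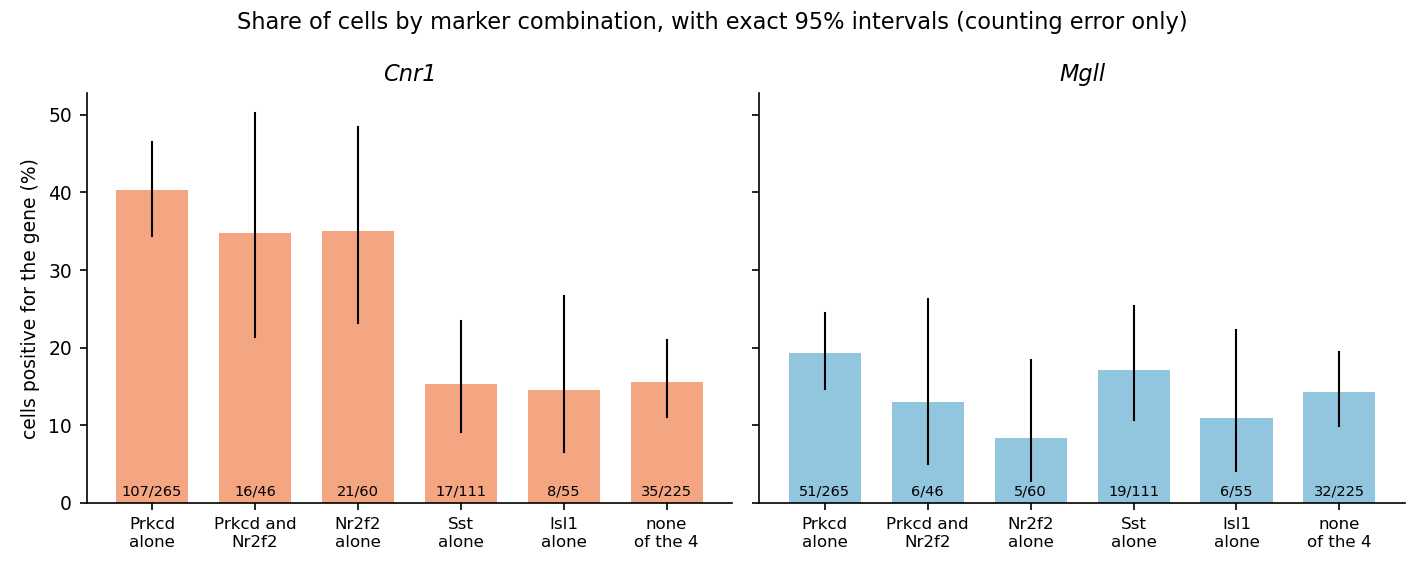
Share of cells positive for Cnr1 (left) and Mgll (right) in percent (y axis) by which of Prkcd, Nr2f2, Sst and Isl1 the cell was positive for (x axis), with exact 95% intervals for counting error and cells positive over cells in the class printed in each bar. Cnr1 was positive in 40.4% of Prkcd-alone cells and 15.3% of Sst-alone cells, and Mgll in 19.2% of Prkcd-alone cells and 17.1% of Sst-alone cells.

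No enzyme passed with edgeR in any comparison of the marker classes. With DESeq2 1 did, Mgll between Nr2f2-positive and Nr2f2-negative cells, where it called 1299 of 13050 genes. Between Prkcd and Sst cells, 0 of 5 enzymes tested passed with edgeR, 0 had an unadjusted p under 0.05 and 0 of 6 passed with DESeq2. Of all 10398 genes tested with edgeR, 877 passed and 2096 had an unadjusted p under 0.05. DESeq2 called 1925 of 12791 genes. Counts from so few enzymes do not set them apart from all genes. Dagla, the lipase for most 2-AG at adult synapses, stood at 8.94, 13.9 and 22.9 CPM (lowest, median, highest) in Prkcd cells, against 6.30, 19.9 and 31.6 CPM in Sst cells. Its log2 fold change was -0.28 with a 95% interval of -1.27 to 0.71. Daglb differed by 0.48 with an interval of -0.75 to 1.70, and its levels were 17.9, 30.6 and 75.1 CPM in Prkcd cells, against 1.07, 44.4 and 56.9 CPM in Sst cells. The ranges of both genes overlapped across the classes.

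Mgll, the main 2-AG hydrolase of brain, had near-equal means of 54.8 ± 25.4 CPM in Prkcd cells and 55.0 ± 30.7 CPM in Sst cells. Its samples ran from 13.4 to 98.2 CPM in Prkcd cells and from 3.33 to 95.8 CPM in Sst cells, and the log2 fold change was 0.17 with an interval of -0.55 to 0.89. Abhd6 averaged 56.3 ± 16.9 CPM in Prkcd cells and 55.3 ± 27.9 CPM in Sst cells, with an interval of -0.58 to 0.90. Faah averaged 57.7 ± 22.3 CPM in Prkcd cells and 57.8 ± 35.4 CPM in Sst cells, with an interval of -0.56 to 1.04. These intervals are wide, and equal levels are not shown by them. Napepld was too low to be tested with edgeR, at 4.76 ± 6.94 CPM in Prkcd cells and 1.38 ± 2.52 CPM in Sst cells.

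**Figure D3:**
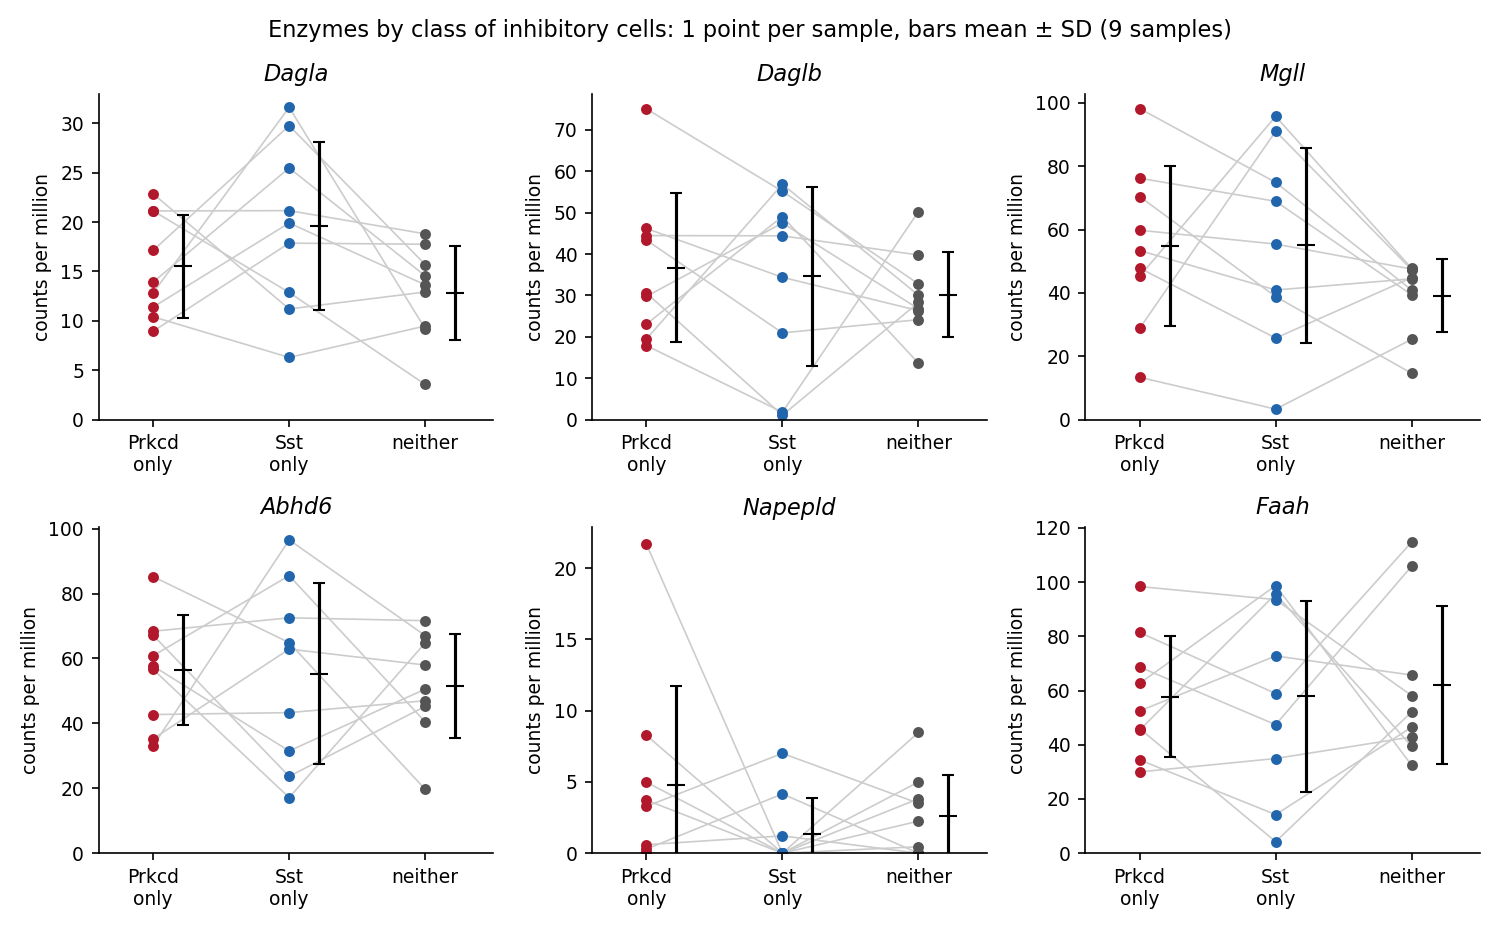
Levels of the 6 enzyme genes in CPM (y axes, each from 0) in cells with Prkcd only, Sst only and neither marker (x axes), with 1 point per sample, lines joining a sample's classes and bars giving the mean ± SD of 9 samples, cut at 0. The classes overlap for each gene, with Mgll means of 54.8 CPM in Prkcd-only and 55.0 CPM in Sst-only cells.

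In the split by Prkcd alone, 0 of 6 enzymes passed with edgeR and 0 with DESeq2. Of all genes, 1992 of 11487 passed with edgeR and 2917 of 13904 with DESeq2. With edgeR, 1 of the 6 had an unadjusted p under 0.05, beside 3287 of all 11487 genes. That 1 was Mgll, at 21.6, 55.3 and 114.6 CPM (lowest, median, highest) in Prkcd-positive cells, against 19.3, 45.8 and 59.1 CPM in Prkcd-negative cells. It was higher in 7 of 9 samples, by a log2 fold change of 0.44 ± 0.21 at an edgeR adjusted p of 0.174. Within animal numbers the value was 0.34, 0.93 and 0.06, and within date fields 0.87, 0.04 and 0.43. The intervals of Abhd6 (-0.42 to 0.57) and Faah (-0.36 to 0.25) were narrower than in the Prkcd against Sst comparison. In the split by Sst, 0 of 6 passed with either tool, beside 514 of all 11355 genes with edgeR and 1495 of 13477 with DESeq2. With edgeR 0 of the 6 had an unadjusted p under 0.05, beside 1833 of all 11355 genes. Mgll there averaged 65.6 ± 37.5 CPM in Sst-positive cells and 47.0 ± 13.3 CPM in Sst-negative cells, at a log2 fold change of 0.36 ± 0.27.

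Isl1-positive cells gave 0 of 5 with edgeR and 0 of 6 with DESeq2, beside 542 of all 11169 genes with edgeR and 2157 of 13477 with DESeq2. An unadjusted edgeR p under 0.05 was found for 1 of the 5, a share near that of all genes (2258 of 11169). The 1 was Abhd6, at 19.3, 36.8 and 58.7 CPM (lowest, median, highest) in Isl1-positive cells, against 46.1, 55.7 and 69.4 CPM in Isl1-negative cells. It was lower in 8 of 9 samples by a log2 fold change of -0.62 ± 0.26, at an edgeR adjusted p of 0.198, while the median gene stood at -0.34 in this fit. Within animal numbers it lay between -0.81 and -0.28, and within date fields between -0.78 and -0.46.

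Nr2f2-positive cells had the lowest mean Mgll level of the classes compared. It was positive in 9.81% ± 10.9 of them and in 17.2% ± 4.93 of Nr2f2-negative cells. Its level per sample was 0, 15.4 and 95.8 CPM (lowest, median, highest) in Nr2f2-positive cells, against 25.1, 52.7 and 82.1 CPM in Nr2f2-negative cells. Replicates 3 and 7 held no Mgll count in 11 and 16 Nr2f2-positive cells, while replicates 5, 8 and 9 held 256, 98 and 111 counts. Samples of the classes overlapped widely. The fitted log2 fold change was -1.87 ± 0.78 with an interval of -3.53 to -0.20, at an edgeR adjusted p of 0.296, and Nr2f2-positive cells were lower in 6 of 9 samples. DESeq2 gave -2.03 at an adjusted p of 0.0179, the 1 of 6 enzymes it called. It called 1299 of 13050 genes in this comparison, more than the 186 of 11008 with edgeR. Within animal numbers the value was -3.99, -0.05 and -2.10, and within date fields -2.91, -1.63 and -0.93. Faah stood at 41.8 ± 15.1 CPM in Nr2f2-positive cells and 63.1 ± 24.4 CPM in Nr2f2-negative cells, at -0.57 ± 0.29 and an edgeR adjusted p of 0.411.

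**Figure D4:**
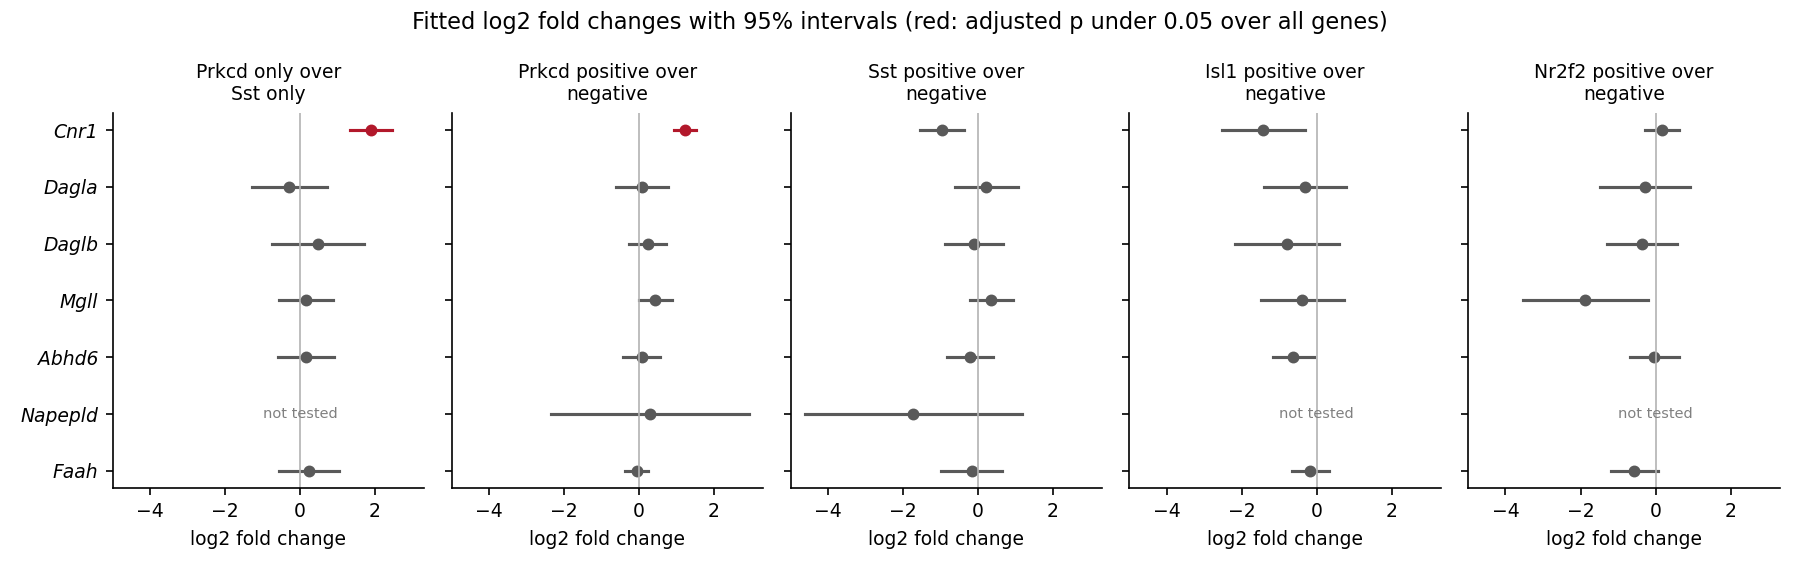
Fitted log2 fold changes (x axes) of the 7 genes (y axis) in the 5 comparisons of marker classes, with 95% intervals from edgeR and red where the adjusted p over all genes was under 0.05. Cnr1 passed at 1.89 for Prkcd over Sst cells and 1.24 for Prkcd-positive over Prkcd-negative cells, and the enzymes' points are grey.

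Receptor and enzymes were then read in the same cells. Of 216 Cnr1-positive cells, 127 were also positive for at least 1 of the 6 enzymes, where independence within each sample would give 126.6 cells. These 127 cells were 15.6% ± 2.45 of inhibitory cells, between 11.6% and 19.6% per sample. Cnr1-positive cells had no enzyme positive in 41.2%, 1 in 36.6%, 2 in 16.7% and 3 in 5.56%. Cnr1-negative cells had no enzyme positive in 41.4%, 1 in 40.7%, 2 in 14.5% and 3 in 3.20%. These shares were not tested against each other. No cell was positive for more than 4 of the 6.

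By step of the pathway, Cnr1 met a 2-AG synthesis gene in 37 cells, against 40.2 expected, and a 2-AG hydrolase gene in 80, against 74.3 expected. It met Napepld or Faah in 56 cells, against 51.0 expected. A synthesis gene and a hydrolase gene of 2-AG were both positive in 51 cells, and 17 of these held Cnr1 as well, against 13.4 expected.

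Most cells with both receptor and enzyme had Prkcd. At least 1 enzyme was positive in 62.2% ± 10.4 of Prkcd cells, 57.6% ± 14.0 of Sst cells and 54.2% ± 9.43 of cells with neither marker. Of the 127, 87 (68.5%) had Prkcd and not Sst, a class that makes up 39.5% of inhibitory cells. The same class held 126 of the 216 Cnr1-positive cells, so this share in part repeats the higher Cnr1 share of Prkcd cells. The cells with neither marker held 31 of the 127, the Sst cells 6 and the cells with both markers the remaining ones. Within the Prkcd cells 27.2% ± 6.29 of cells per sample held Cnr1 and an enzyme, 87 cells against 78.3 expected from their separate shares. Within the Sst cells it was 3.79% ± 3.69, 6 cells against 11.1 expected. These shares depend on the threshold. With 1 count making a cell positive, 395 inhibitory cells (48.7% ± 6.61) held Cnr1 and an enzyme, among them 206 Prkcd cells against 200.5 expected and 49 Sst cells (37.6% ± 10.8) against 47.1 expected. Cells positive for Nr2f2 held 21 of the 127 and cells positive for Isl1 held 6.

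All 21 pairs among the 7 genes were tested for joint positivity. The log2 odds ratio of each pair was taken in every sample and its mean set against 0 by an exact two-sided permutation test that flips signs. With Benjamini-Hochberg adjustment over the 21 pairs, 0 passed, and 1 had an unadjusted p under 0.05. That pair was Cnr1 with Mgll, both positive in 46 cells against 35.4 expected, and the log2 odds ratio averaged 0.78 ± 0.73 (SD, n = 9) and was above 0 in 9 of 9 samples. Its exact permutation p of 0.00391 is the smallest that 9 samples can give, and the adjusted p was 0.082. A single pair at that floor could therefore not pass, however strong its link. That 0 pairs passed does not show the genes to be unlinked. Mgll was positive in 21.1% ± 6.62 of Cnr1-positive cells and 14.4% ± 5.52 of Cnr1-negative cells. In Prkcd-positive cells alone the pair gave 34 cells against 26.3 expected, and in Prkcd-negative cells 12 against 11.3. With counts thinned to 50000 per cell it was above 0 in 6 of 9 samples.

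The other receptor pairs had permutation p between 0.109 and 0.746. Cnr1 with Dagla gave 14 cells against 10.8 expected, with Daglb 24 against 30.2, with Abhd6 47 against 48.7 and with Faah 53 against 48.4. Cnr1 with Napepld gave 3 against 2.59, in the 5 samples with a Napepld-positive cell, where no permutation p can be below 0.0625. As levels, the correlation of Cnr1 with each enzyme over 801 cells lay between -0.0291 and 0.0578, which describes sparse counts and carries no test.

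**Figure D5:**
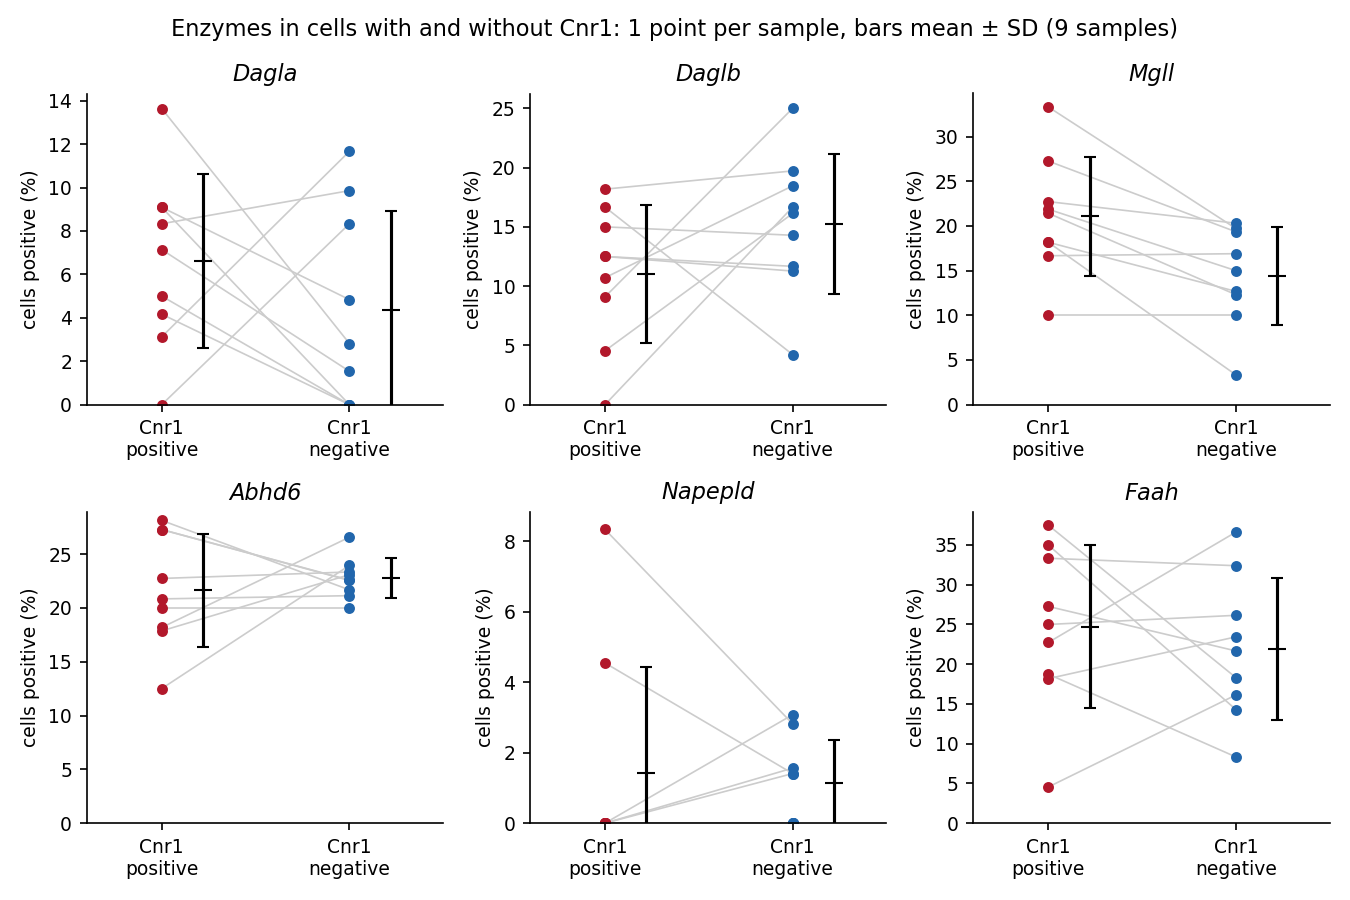
Share of cells positive for each of the 6 enzymes in percent (y axes, each from 0) among Cnr1-positive and Cnr1-negative inhibitory cells (x axes), with 1 point per sample, lines joining a sample's classes and bars giving the mean ± SD of 9 samples, cut at 0. Mgll averaged 21.1% in Cnr1-positive and 14.4% in Cnr1-negative cells, and the classes overlap for each enzyme.

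The whole table was also compared between Cnr1-positive and Cnr1-negative cells, where Cnr1 itself differs by the choice of cells. Of 11372 genes, 0.325% passed with edgeR, 37 with Cnr1. None of the 6 enzymes passed with edgeR or with DESeq2, which called 470 of 13904 genes. With edgeR 0 of the 6 had an unadjusted p under 0.05, beside 1118 of all 11372 genes. Mgll was nearest, at 59.9 ± 15.9 CPM in Cnr1-positive cells and 47.1 ± 17.6 CPM in Cnr1-negative cells, a log2 fold change of 0.43 ± 0.20 at an edgeR adjusted p of 0.516. Prkcd was at 549 ± 164 CPM in Cnr1-positive cells and 234 ± 71.3 CPM in Cnr1-negative cells, 1.25 ± 0.15 at an edgeR adjusted p of 0.00206. That value reads the known difference of Cnr1 by Prkcd from the other side in the same cells. Its p is thus no independent test either. Without Prkcd-positive cells 3 genes passed, Cnr1 included. The count also fell to between 13 and 20 without any 1 of replicates 1 to 6.

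The genes whose levels over 801 cells were most like that of Cnr1, out of 6172 positive in at least 10% of cells, were Prkcd (r = 0.324), Ezr (0.244), Ddc (0.226), Rap1gap (0.225) and Pea15a (0.221). Ezr encodes the membrane-cytoskeleton linker ezrin, Ddc aromatic amino acid decarboxylase and Rap1gap an inactivator of the small GTPase Rap1. Within samples the correlation with Prkcd lay between 0.231 and 0.449. The same cells and libraries underlie all these values. For Mgll the highest were Ppp1r1b (0.236), Chga (0.199), Rap1gap (0.183), Ptp4a3 (0.178) and Arhgap36 (0.174), and Ppp1r1b encodes DARPP-32. For Dagla no gene was above 0.147, the value of Ralgapb, followed by Mef2a (0.131), Tmem11, Nipsnap1 and Sv2a (0.120 each).

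A list of 37 other genes of the pathway was read in the same fits, 36 of them in the table and 29 tested. Gpr55, a lipid receptor, had no count in the 810 cells, and Trpv1, a channel that anandamide can open, was positive in 1 cell. Cnrip1, whose product binds the tail of CB1, was positive in 57.9% of cells and passed in no comparison. The prostaglandin synthase gene Ptgs2, which can oxidise 2-AG, was positive in 6 cells. Abhd12, another 2-AG hydrolase, was positive in 89.4% of cells and likewise did not pass.

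Between Prkcd and Sst cells 2 of the 29 rose and 1 fell, 10.3% beside 8.43% of all genes, with median log2 fold changes of 0.11 in the list and 0.16 over all genes. Rgs4, which speeds the shut-off of Gi and Gq proteins, was at 606 ± 54.6 CPM in Prkcd cells and 288 ± 75.6 CPM in Sst cells, without overlap, at a log2 fold change of 1.11 ± 0.13 and an edgeR adjusted p of 5.75e-05. Adcy5, a cyclase that Gi inhibits, was at 150 ± 33.6 CPM in Prkcd cells and 103 ± 40.1 CPM in Sst cells, 0.59 ± 0.17, adjusted p 0.0466. Gnai1, a Gi alpha subunit, was at 124 ± 52.9 CPM in Prkcd cells and 245 ± 159 CPM in Sst cells, -0.91 ± 0.20, adjusted p 0.00857. Rgs4 and Gnai1, both of the Gi list, thus moved in opposite directions.

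In the Prkcd split 4 of 29 rose and 5 fell, 31.0% beside 17.3% of all genes, with medians of -0.08 in the list and -0.02 over all genes. Of the 7 tested genes of the list for Gq drive, 2 rose and 1 fell. Grm5, a receptor that drives 2-AG synthesis through Gq, was higher, at 272 ± 23.2 CPM in Prkcd-positive cells and 232 ± 25.5 CPM in Prkcd-negative cells (0.26 ± 0.08, edgeR adjusted p 0.0317). The other genes that rose were Gna11 (0.34), Rgs4 (1.24) and Adcy5 (0.53). Among the genes that fell were the lipid carrier gene Fabp3 (-0.88), Gnai1 (-0.52), the arrestin gene Arrb1 (-0.92) and the potassium channel gene Kcnj3 (-0.54).

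In Sst-positive cells 1 of 29 passed, 3.45% beside 4.53% of all genes. It was Gnai1, which rose by 0.67. In Isl1-positive cells 4 of 29 passed, 13.8% beside 4.85% of all genes, with medians of -0.10 in the list and -0.34 over all genes. Those that fell were Rgs4 (-1.65 ± 0.14, edgeR adjusted p 1.72e-05), Grm5 (-0.76) and the phospholipase gene Plcb1 (-0.65), and the release-site gene Rims1 rose (0.75). Rgs4 stood at 140 ± 35.4 CPM in Isl1-positive cells and 430 ± 33.8 CPM in Isl1-negative cells. In Nr2f2-positive cells 3 of 29 passed, 10.3% beside 1.69% of all genes, with medians of -0.15 in the list and -0.24 over all genes. Of the 3, 1 rose and 2 fell. Gnai1 was among those that fell (-0.82). Abhd4, of another route to anandamide, also fell there, at an edgeR adjusted p of 0.0312, on 16 positive cells in all. It was at 0 CPM in the median sample of Nr2f2-positive cells, so its fitted fold change is not given. Between Cnr1-positive and Cnr1-negative cells 0 of 29 passed with edgeR, beside 0.325% of all genes. Of the 29, 3 had an unadjusted edgeR p under 0.05, beside 1118 of all 11372 genes. With DESeq2 1 of 32 passed, beside 470 of all 13904 genes.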

How the data were processed

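Single-cell RNA-seq counts of 829 cells in 9 samples were analysed. The table deposited by the authors holds unnormalized counts for each cell and gene symbol, from which 91 spike-in rows were dropped. The build NCBIM37 and the tool Seurat are named in the submitters' processing notes. The sources used here do not give the aligner, whether counting used strand, or whether molecular identifiers were counted. Exact intervals pool the cells of all samples and cover counting error only, while edgeR intervals cover the spread between samples. Samples had total gene counts of 8522750 to 22730327.

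The members and gene lists were chosen with earlier results of these data known, including that Cnr1 was higher in Prkcd cells. Counts were summed per sample and class with at least 5 cells and fitted over all genes with edgeR 4.0.16 (TMM, filterByExpr, quasi-likelihood, sample as a block) in R 4.3.3. CPM is computed from those sums, without TMM. Genes with an adjusted p under 0.05 (Benjamini-Hochberg, over all genes tested) passed. Odds ratios had 0.5 added to each entry of the 2 by 2 table.

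The fits were also run on simulated sums whose gene means did not differ between samples, unlike the real data. No conclusion is drawn from them here. Genes named are the 7 members, pathway genes that pass, up to 5 genes most like Cnr1, Dagla and Mgll (Pearson r of log2 of counts per 10000 plus 1), and the class markers. The alternatives were other scaling, DESeq2 1.42.0, no filter, no block, positive at 1 count or at 3 per 10000, thinned counts (789 inhibitory cells kept, seed 7), other minimum cell numbers, all cells, cells over 20000 counts, cells without Mbp, equal cell numbers and each sample left out. Sums per animal number and classes without Prkcd-positive or Sst-positive cells were added after seeing the data. No doublet caller was run, and 9 inhibitory cells under 20000 counts were kept. Of 36 library pairs, 6 shared plate barcodes and 0 cells had identical counts. Exon overlaps were read from GENCODE M21 by gene name, and no coordinates are printed because its build differs from that of the files. The values of 1 listed pathway gene, counted among those tested, are not reported here.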

Additional observations from a re-analysis of the deposited data

Results flagged for a closer look

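The 19 cells left out of the inhibitory class hold counts of 6 of the 7 genes above the limit of 3 counts that a count of 0 allows, which is why they are listed. Summed over the 19 cells, Cnr1 had 59 counts in 2 cells, Daglb 31 in 4 cells and Mgll 298 in 4 cells. Abhd6 had 77 counts in 4 cells, Napepld 10 in 2 cells and Faah 154 in 6 cells. Cells positive by the threshold were 1 for Cnr1, 1 for Mgll, 2 for Abhd6 and 4 for Faah. The median depth of these cells was 53113 gene counts, against 126576 in inhibitory cells. Dagla had 1 count. In 22 sets of 9 sample values for the members, 0 held a sample that stood apart from the others by Dixon's criterion, which chance passes in about 1 of 20 sets.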

How the results depend on the processing

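Of the 7 genes, Cnr1 had its direction kept under every alternative run in the Prkcd against Sst and the Prkcd comparisons. Between Prkcd and Sst cells its log2 fold change was 1.77 to 2.05 with each sample left out, and it lost its call, at 1.79, when 1 count made a cell positive. In the Prkcd comparison it was 1.13 to 1.29 with each sample left out. For Sst its value passed with DESeq2 (-0.93), at 3 counts per 10000 (-1.18), with thinned counts (-1.01) and without replicate 7 (-1.10). For Isl1 it passed with DESeq2 (-1.45). Of 733 enzyme values over 33 enzyme comparisons under alternatives, 1 passed, Mgll for Nr2f2 with DESeq2, and 78 had the other sign.

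Counts of genes past the threshold moved more. DESeq2, with its own filter, called 1925 for Prkcd against Sst cells (877 with edgeR), 1495 for Sst (514), 2157 for Isl1 (542), 1299 for Nr2f2 (186) and 470 for Cnr1 (37). With 1 count making a cell positive there were 218 for Prkcd against Sst, 657 for Prkcd (1992), 14 for Sst and 15 for Cnr1. At 3 counts per 10000 there were 5 for Isl1, 13 for Nr2f2 and 23 for Cnr1, on fewer samples. Without Mbp-positive cells there were 411 for Prkcd against Sst, 200 for Sst, 297 for Isl1, 68 for Nr2f2 and 14 for Cnr1. With equal cell numbers, so fewer cells, there were 506 for Prkcd against Sst, 182 for Sst, 118 for Isl1, 26 for Nr2f2 and 1 for Cnr1. With at least 10 cells per class there were 4 for Isl1, on 2 samples, and 116 for Nr2f2. Without the sample block there were 15 for Cnr1. Of the alternatives chosen after seeing the data, sums per animal number gave 572 for Prkcd against Sst, 136 for Sst, 147 for Isl1, 17 for Nr2f2 and 8 for Cnr1, and leaving out Prkcd-positive cells gave 237 for Sst, 103 for Isl1, 101 for Nr2f2 and 3 for Cnr1. With each sample left out the counts ran from 320 to 462 for Sst, from 85 to 140 for Nr2f2 and from 13 to 37 for Cnr1, and they were more than 1.5 times below the full count without replicates 1, 2 or 6 for Sst, without any of replicates 1 to 8 for Nr2f2 and without any of replicates 1 to 6 for Cnr1. Where no reason is given here, the cause was not tested.

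At 3 counts per 10000, 9 of 21 pairs passed, among them Cnr1 with Mgll (0.99), Cnr1 with Daglb (1.94) and Cnr1 with Abhd6 (2.08), the last 2 with the sign turned. At most 3 cells held both genes of such a pair, so the 0.5 added to each entry sets these ratios. With each sample left out 0 pairs passed. The smallest p of the permutation test is larger with fewer samples, so a single pair could not pass in those runs. Classes were paired within samples by the sample block, except in the fits without it and in the sums per animal number. The fewest positive cells behind a member's values were 10 for Napepld and 39 for Dagla. Isl1-positive cells numbered 6 to 17 per sample and Nr2f2-positive cells 7 to 17, so these comparisons rest on few cells.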
